A study of Mus musculus with 27 samples.

Results

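Integrins, laminins and the adhesion glycoproteins of the extracellular matrix were followed in cultured mouse thyroid tumor cells. The members were all gene symbols in the count table that name an integrin alpha subunit (18 genes), an integrin beta subunit (8 genes) or a laminin chain (11 genes), together with 8 matrix glycoprotein genes (Fn1, Vtn, Tnc, Tnr, Tnn, Tnxb, Nid1 and Nid2). This gave 45 members of 33924 symbols, and the rule used names and no measured value. RNA sequencing libraries came from 12 lines grown from dissociated tumors, each line given CKI or vehicle, and from 3 libraries labelled wildtype. Every tumor line carried Braf V600E, an activated form of the kinase BRAF. Lines BS53736, BS53958 and BS53965 also carried a Smarcb1 knockout (KO), lines BA45198, BA47473 and BA49112 an Arid1a KO, and lines AB51189, AB52980 and AB55694 an Arid2 KO. Lines B47275, B48051 and B52482 carried Braf V600E alone and are called Braf lines. All 3 KO genes code for parts of the chromatin remodeler SWI/SNF, and how the KO was made is not given in the sources used here. CKI is CH5126766, an inhibitor of RAF and MEK, used at 300 nM for 8 days. The protocol names bovine TSH beside CKI in wording that does not settle whether vehicle cells had it, so CKI and TSH cannot be told apart here. The wildtype libraries are labelled untreated, and their source label is that of the tumor lines. Values of the 3 libraries of a group are given below in this order of lines, and those of wildtype by ascending library number.

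Integrins are receptors made of an alpha and a beta subunit that tie the cytoskeleton to the matrix outside the cell. Laminins are trimers of an alpha, a beta and a gamma chain and form the sheet of the basement membrane on which epithelial cells, such as those of the thyroid follicle, sit. Fibronectin (Fn1), vitronectin (Vtn), tenascins (Tnc, Tnr, Tnn, Tnxb) and nidogens (Nid1, Nid2) are matrix proteins that bind integrins, laminins or each other.

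Promoters are shown for the members on which the results below turn and for which a sequence was at hand: Lama5, Itgb8 and Tnr, which differed in Smarcb1 KO lines, and Lamb2 and Itgb5, which rose under CKI. RefSeq promoters (assembly GRCm38.p6, 250 bases before and 50 after the gene start) were matched by symbol for 29 of the 45 members. Capitals mark the E-box CACCTG on either strand. The sequences are written 5′ to 3′ on the strand of the gene. The counts were made on another build, mm9, and no position was carried between builds.
Lama5, chr2:180225810-180226109, minus strand: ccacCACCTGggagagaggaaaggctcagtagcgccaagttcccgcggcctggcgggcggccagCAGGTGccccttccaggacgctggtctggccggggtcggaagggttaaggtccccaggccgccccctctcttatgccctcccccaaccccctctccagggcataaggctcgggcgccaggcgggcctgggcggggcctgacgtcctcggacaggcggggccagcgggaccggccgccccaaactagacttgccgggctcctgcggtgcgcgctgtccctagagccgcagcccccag
Itgb8, chr12:119238227-119238526, minus strand: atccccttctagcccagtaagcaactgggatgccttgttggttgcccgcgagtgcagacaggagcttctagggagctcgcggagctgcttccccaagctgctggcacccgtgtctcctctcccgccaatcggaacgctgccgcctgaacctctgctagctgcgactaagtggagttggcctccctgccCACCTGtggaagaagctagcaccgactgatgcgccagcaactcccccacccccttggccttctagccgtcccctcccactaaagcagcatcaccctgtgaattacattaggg
Tnr, chr1:159523519-159523818, plus strand: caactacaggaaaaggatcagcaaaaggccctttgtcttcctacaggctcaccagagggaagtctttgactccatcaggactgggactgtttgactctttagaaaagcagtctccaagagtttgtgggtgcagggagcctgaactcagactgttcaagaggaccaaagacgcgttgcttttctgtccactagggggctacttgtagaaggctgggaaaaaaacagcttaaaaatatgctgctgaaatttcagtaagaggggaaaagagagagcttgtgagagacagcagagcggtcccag
Lamb2, chr9:108479612-108479911, plus strand: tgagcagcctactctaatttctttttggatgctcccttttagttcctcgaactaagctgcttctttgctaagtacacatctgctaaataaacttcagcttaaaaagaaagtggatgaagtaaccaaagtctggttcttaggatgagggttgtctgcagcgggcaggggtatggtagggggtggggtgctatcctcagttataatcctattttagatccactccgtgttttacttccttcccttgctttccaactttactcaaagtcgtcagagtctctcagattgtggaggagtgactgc
Itgb5, chr16:33829415-33829714, plus strand: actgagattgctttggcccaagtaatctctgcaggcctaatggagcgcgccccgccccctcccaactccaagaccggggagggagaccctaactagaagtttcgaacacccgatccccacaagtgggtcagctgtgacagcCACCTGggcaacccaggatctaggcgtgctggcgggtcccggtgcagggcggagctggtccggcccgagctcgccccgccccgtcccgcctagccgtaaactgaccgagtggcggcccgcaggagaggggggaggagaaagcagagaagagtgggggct
In these windows the E-box letters began 246 and 186 bases before the start of Lama5, 62 bases before that of Itgb8 and 109 bases before that of Itgb5. The windows of Tnr and Lamb2 held no E-box, no AP-1 letters (TGANTCA) and no TEAD letters (GGAATG), searched on both strands. Over all 32851 mouse promoters of this length, 20.2% held the E-box, 7.81% the AP-1 letters and 14.7% the TEAD letters. Among the 33 promoters of members the shares were 27.3%, 12.1% and 18.2%. A match describes the letters and not a bound site.

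Total counts lay between 18417255 and 27257703 in 25 libraries. BS53958 and BS53965 were shallower under CKI, with 11684983 and 2884130 counts, so that their low levels carry more counting error. Levels are given as CPM, counts scaled to a common library size. Changes are log2 ratios with a standard error (SE) from edgeR's quasi-likelihood test, with p adjusted by Benjamini-Hochberg over all genes tested, and a change is called at an adjusted p under 0.05. After a change ± gives the SE, and after a mean CPM the SD over 3 libraries. Smarcb1 itself averaged 0.461 ± 0.612 CPM in its KO lines and 74.9 ± 9.06 CPM in Braf lines (SD, n = 3 each, vehicle). Arid1a averaged 80.5 ± 13.8 CPM in Arid1a KO lines and 132 ± 3.86 CPM in Braf lines. Arid2 averaged 94 ± 14.3 CPM in lines labelled Arid2 KO and 97.6 ± 10.2 CPM in Braf lines (adjusted p = 0.968), so whole-gene counts did not check the Arid2 label. Thyroid follicle markers, led by thyroglobulin, summed to 33 to 224 CPM across Smarcb1 KO and 92.8 to 253 CPM in Braf vehicle libraries, against 229400 to 348100 CPM in wildtype libraries. In Arid1a KO and Arid2 KO vehicle libraries they summed to 71.4 to 199 and 122 to 376 CPM, so the thyroid RNA that defines the labelled tissue was scarce in all tumor lines.

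Per kilobase of exon, the most abundant members were shared by most groups. Exon lengths came from GENCODE vM21 and not from the annotation behind the counts. Itgb1, the beta subunit shared by the largest number of integrins, had 268 ± 93.6 CPM per kb in Smarcb1 KO, 374 ± 23.1 in Arid1a KO, 414 ± 207 in Braf vehicle libraries and 136 ± 2.01 in wildtype libraries (mean ± SD, n = 3 each). Itga3, a laminin receptor subunit, led the alpha subunits in Smarcb1 KO (257 ± 216 CPM per kb) and Braf vehicle lines (343 ± 54.1). In wildtype libraries the level of Itga6, another laminin receptor subunit, was 23.9 ± 1.87 CPM per kb and that of Itga3 was 21.9 ± 4.86, a gap within their spread. Lama5, an alpha chain of epithelial and vascular laminins, led the laminin alpha chains in all 9 groups, at 1.19 ± 1.73 CPM per kb in Smarcb1 KO vehicle lines, its lowest mean, and 94.5 ± 18.5 in Braf vehicle lines. Fn1 had 1044 ± 595 CPM per kb in Braf vehicle lines, above every other member. In Smarcb1 KO vehicle lines Fn1 had only 10.6 ± 17.7 CPM per kb, below Itgb1 and Itga3, and wildtype libraries had 14.3 ± 9.3.

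**Figure D1:**
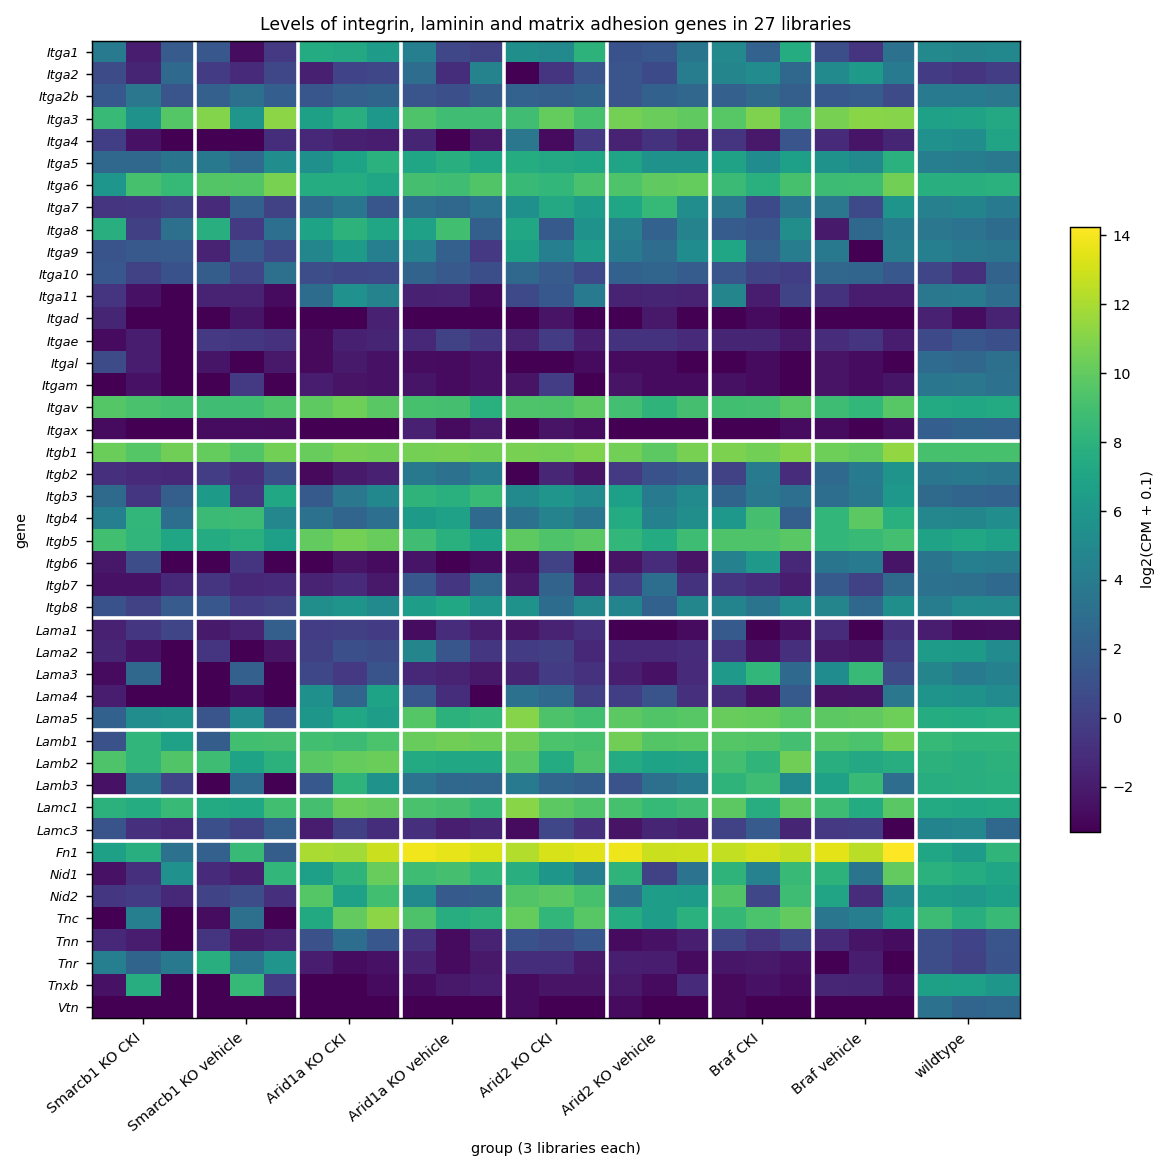
Levels of 44 members (rows) in all 27 libraries (columns, 3 per group), as log2(CPM + 0.1) by color. Fn1 is the brightest row in every tumor group except the 6 Smarcb1 KO libraries. Tnr is brighter in those 6 libraries than in the other tumor libraries, most of all in BS53736 in vehicle.

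Smarcb1 KO lines had far less fibronectin, Lama5 and Itgb8 RNA than Braf lines and had RNA of the tenascin Tnr, which was near absent in Braf lines. In vehicle, 13 of the 40 members tested were called, 2 higher and 11 lower, against 18.1% of all 15634 genes called (6.93% higher, 11.2% lower). The 2 higher ones, Tnr and Tnxb, passed the filter on low counts through the Smarcb1 KO libraries alone, with at most 9 and 7 counts in any of the 18 other tumor libraries, so their tests add nothing to their counts. Where called, they stay in the numbers of called members given here and below. The median log2 change over the members tested was -1.07, and over all genes it was -0.02.

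Among the matrix glycoproteins, Fn1, the ligand of the Itga5 and Itgb1 receptor, had 4.13, 363 and 3.57 CPM in Smarcb1 KO lines, against 11658, 5539.5 and 19411 CPM in Braf lines. The groups did not overlap, and BS53958 stood above the other Smarcb1 KO lines. The log2 change was -6.61 ± 1.47 (SE, adjusted p = 0.00617). Tnr, tenascin-R, which is best known from the brain, had 212, 11.7 and 57.5 CPM in Smarcb1 KO lines, against 0, 0.155 and 0 CPM in Braf lines. All 3 Smarcb1 KO lines were above all Braf lines, which held 3 counts in all, and the counted ratio was 1880 (95% exact counting interval 642 to 9110). The fitted log2 change was 10.69 ± 1.26 (SE). Tnxb, tenascin-X of connective tissue, had 0, 355 and 0.732 CPM in Smarcb1 KO lines, against 0.277, 0.258 and 0.0516 CPM in Braf lines. It was high in line BS53958 alone and the groups overlapped, and without BS53958 it did not pass the filter on low counts. Reads of Tnxb can also be shared with its partial copy Tnxa. Nid2, a linker of laminin and collagen in basement membranes, had 1.14, 1.7 and 0.431 CPM in Smarcb1 KO lines, against 121, 0.361 and 29 CPM in Braf lines, and was called lower (-5.53 ± 1.79, adjusted p = 0.0394). B48051 was below all Smarcb1 KO lines, so the groups overlapped, and the call was lost in 5 of 6 fits that left out 1 line, at -3.74 (adjusted p = 0.162) without B47275.

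Of the 11 laminin chains, 4 were called lower in Smarcb1 KO lines and none higher. Lama5 had 2.37, 36.2 and 2.02 CPM in Smarcb1 KO lines, against 910.2, 1004 and 1313 CPM in Braf lines. Every Smarcb1 KO line was below every Braf line, and BS53958 was again the highest of its group. The log2 change was -6.30 ± 1.13 (SE, adjusted p = 0.00169). Lama3 and Lamb3, chains of the laminin that anchors surface epithelia, were also called lower, at -6.63 ± 2.06 and -6.12 ± 2.05. Lama3 had 0, 4.12 and 0 CPM and Lamb3 0, 6.84 and 0 CPM in Smarcb1 KO lines, and BS53958 exceeded Braf line B52482 for Lama3, so its groups overlapped. Each lost its call in 4 of 6 fits that left out 1 line. Without B48051 Lama3 was at -3.79 (adjusted p = 0.191) and Lamb3 at -4.64 (adjusted p = 0.132). Lama4, a chain of vessel laminins, was called lower with 1 count over the 3 Smarcb1 KO libraries, against 249 over the Braf libraries, almost all of them from B52482. The counted ratio of Braf to Smarcb1 KO lines was 267 (95% exact counting interval 47.5 to 10600). Without B52482 the adjusted p of Lama4 was 0.539.

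Of 14 alpha and 8 beta integrin subunits tested, Itgb8, Itgb2, Itga2, Itga5 and Itga7 were called lower in Smarcb1 KO lines and none higher. Itgb8, which pairs with Itgav to bind latent TGF-beta, had 2.56, 0.728 and 0.99 CPM in Smarcb1 KO lines, against 25, 5.82 and 42.3 CPM in Braf lines. The groups did not overlap, and the log2 change was -4.10 ± 0.88 (SE, adjusted p = 0.0051). Itgb2, the beta subunit of leukocyte integrins, had 0.807, 0.437 and 1.72 CPM in Smarcb1 KO lines, against 6.22, 15.6 and 54.4 CPM in Braf lines. The 2 groups stayed apart, with a log2 change of -4.68 ± 1.23 (SE, adjusted p = 0.0154). The leukocyte markers summed to 3.53 to 14.7 CPM across Smarcb1 KO and 3.41 to 5.2 CPM across Braf lines, with Tyrobp and Cd3e at 0 in both. Itga2, a collagen receptor subunit, had 0.712, 0.34 and 1.25 CPM in Smarcb1 KO lines, against 33, 67.7 and 14.7 CPM in Braf lines. Each Smarcb1 KO line was below each Braf line, at -5.65 ± 1.63 (SE, adjusted p = 0.0247), and the call was lost in 5 of 6 fits that left out 1 line. The other collagen receptor subunits were not called: Itga1 (-1.84 ± 1.57, adjusted p = 0.441), Itga10 (0.00 ± 0.63, adjusted p = 1) and Itga11 (-0.66 ± 1.39, adjusted p = 0.782). Itga5, the fibronectin receptor subunit, had 13.6, 7.08 and 39 CPM in Smarcb1 KO lines, against 52.3, 34.6 and 238 CPM in Braf lines. BS53965 exceeded B48051, so the groups overlapped, and the log2 change was -2.46 ± 0.75 (SE, adjusted p = 0.031). Itga7, a laminin receptor subunit of muscle, had 0.332, 4.07 and 0.947 CPM in Smarcb1 KO lines, against 12.6, 1.39 and 54.6 CPM in Braf lines, and was also called lower (-3.67 ± 1.16, adjusted p = 0.0363). BS53958 exceeded B48051, so the groups overlapped, and without B52482 the change was -2.01 (adjusted p = 0.232). Since the strand setting of the counting is not given, reads of Itga7 may include those of its neighbor Mettl7b, which overlaps it on the opposite strand. The same holds for Nid2, Itga4, Itga8, Itgad, Itgav, Itgb4, Fn1, Lama2, Lama3, Lamc3, Nid1, Tnc, Tnr and Tnxb, which also overlap opposite-strand genes. Itga1, Itga10, Itgam and also Itgad overlap genes on their own strand, so strand cannot separate those reads.

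The subunits Itgb1, Itgav and Itgb4 were not called. Itgb1 had 1088, 716 and 1479.7 CPM in Smarcb1 KO lines, against 1324, 1085 and 2654 CPM in Braf lines (-0.63 ± 0.32, adjusted p = 0.174). Itgav, the alpha subunit of receptors for vitronectin, fibronectin and latent TGF-beta, had 463, 466 and 691 CPM in Smarcb1 KO lines, against 443, 313 and 809 CPM in Braf lines (0.04 ± 0.37, adjusted p = 0.955). Itgb4, the hemidesmosome subunit that pairs with Itga6, had 397, 429 and 28.1 CPM in Smarcb1 KO lines, against 310, 924 and 227 CPM in Braf lines (-0.78 ± 1.40, adjusted p = 0.74). For these 3 genes the groups overlapped. Several uncalled members were set by line: Lamb1 had 3.61, 482 and 524 CPM and Nid1 0.332, 0.194 and 318 CPM in the 3 Smarcb1 KO lines, so that Lamb1 was near absent in BS53736 and Nid1 abundant in BS53965 alone. Itga8, the nephronectin receptor subunit, had 213, 0.679 and 8.61 CPM, high in BS53736 alone.

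The count of 13 depended on single lines: it was 7 without B47275, 5 without BS53736 and 8 without BS53965. In a fit of the 2 compared groups alone it was 2 (Tnr and Itga2), where the adjusted p of Fn1 was 0.125, that of Lama5 0.0567 and that of Itgb8 0.0573. Here and below, counts from such fits stand without the share of all genes called in the same fit. They describe the fit and not the members. Of the members called lower, Fn1, Lama5 and Itgb8 kept their call whichever line was left out, while Itgb2 lost it when BS53736 or BS53958 was left out and Itga5 when BS53736, BS53958 or B52482 was (without B52482, adjusted p = 0.286).

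**Figure D2:**
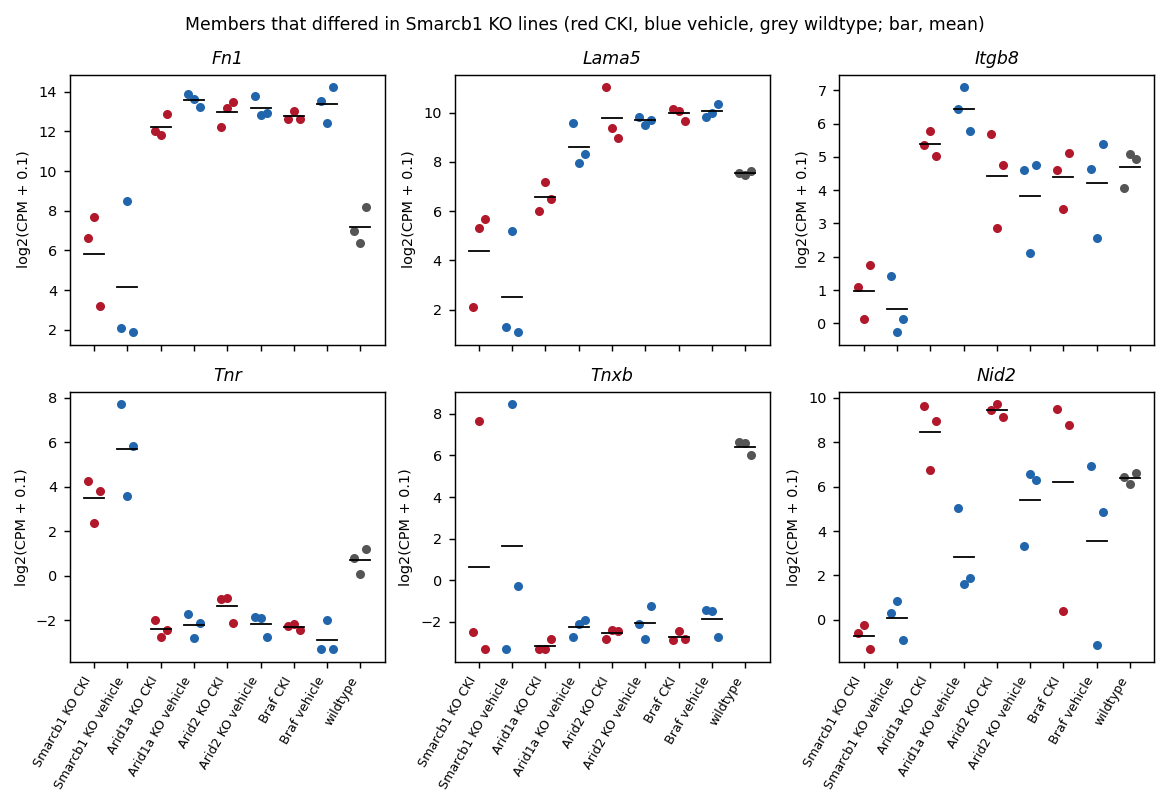
Levels of Fn1, Lama5, Itgb8, Tnr, Tnxb and Nid2 as log2(CPM + 0.1) in each library (points; bar, mean of 3) of the 9 groups, with CKI in red, vehicle in blue and wildtype in grey. Both Smarcb1 KO groups lie below all other tumor groups for Fn1, Lama5 and Itgb8 and above them for Tnr, and Tnxb is high in BS53958 and in wildtype libraries.

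Genes that work with the members also differed in Smarcb1 KO lines, where 27 of 71 genes tested in 5 lists were called (38%), beside the 18.1% of all genes. Of 24 focal adhesion genes, which link integrins to actin, 4 were higher and 5 lower. Tns3, a tensin, had a log2 change of 2.41 ± 0.30 (SE, adjusted p = 0.000103), and Nedd9, a scaffold of focal adhesion kinase signaling, one of -7.19 ± 1.15 (SE, adjusted p = 0.000755). The crosslinker Actn4 was lower (-0.98 ± 0.23), as was Parva (-1.16 ± 0.30), a partner of integrin-linked kinase. Of 12 other laminin receptors and tetraspanins, 6 were lower and none higher, among them Cd81 (-1.68 ± 0.25), the laminin receptor Bcam (-5.59 ± 1.54) and the syndecans Sdc1 (-2.18 ± 0.62) and Sdc3 (-2.69 ± 0.63). Of 12 basement membrane genes tested, 4 were lower and 1 higher. Agrn, the heparan sulfate proteoglycan agrin, averaged 106 ± 35.4 CPM with the Smarcb1 KO and 708 ± 10.1 CPM in Braf lines (-2.75 ± 0.65), and Col18a1 averaged 49.8 ± 42.9 and 2836 ± 1910 CPM (-5.83 ± 1.68). Of 4 hemidesmosome genes tested, the linker Dst was higher (1.67 ± 0.40) and Krt5 was lower (-3.61 ± 1.02). Of 19 other matrix glycoproteins, 1 was higher (Fbln1, 3.85 ± 0.99) and 4 were lower, among them Mfge8 (-3.36 ± 0.48), an integrin ligand of the milk fat globule.

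Some markers of other cell types differed in this comparison too. The 12 epithelial markers summed to 32.8, 403 and 0.43 CPM in Smarcb1 KO lines and 7006, 10280 and 1596 CPM in Braf lines, and 2 of 12 were called lower (Elf3, -6.70 ± 1.90, and Krt18, -5.83 ± 1.96). The endothelial markers summed to 14.9, 1.79 and 667 CPM in Smarcb1 KO lines and 4.38, 1.49 and 5.21 CPM in Braf lines. Pecam1 (4.86 ± 1.23) and Cdh5 (9.25 ± 2.93) were called higher, while Emcn was at 0 in all 3 Smarcb1 KO vehicle libraries. The fibroblast markers summed to 6.41, 123 and 667 CPM in Smarcb1 KO lines and 32.2, 5.46 and 174 CPM in Braf lines, with Col1a1 (-6.70 ± 1.90) and Col3a1 (-5.37 ± 1.79) called lower. The part of these markers in the differences of the members was not tested. In bulk RNA fewer cells of a type and less RNA per cell cannot be told apart.

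Under CKI the same comparison gave 13 called members, 2 higher and 11 lower, against 23.1% of all genes. Of the 13 members called in each arm, 11 were called in both, Tnr and Tnxb among them. The libraries of both arms came from the same lines. The same overlap was not counted over all genes, so it is not shown to be particular to the members. Fn1 had 99, 204 and 9.21 CPM in Smarcb1 KO lines under CKI, against 6387, 8429.5 and 6322 CPM in Braf lines under CKI, a log2 change of -6.08 ± 1.43 (SE, adjusted p = 0.00792). Lama5 had 4.26, 39.8 and 51.7 CPM against 1145, 1078 and 804 CPM in the same 2 groups (-5.00 ± 1.06, adjusted p = 0.00443). Neither gene's groups overlapped. Nid2 was near absent in Smarcb1 KO lines, at 0.574, 0.741 and 0.297 CPM, against 725, 1.21 and 438 CPM in Braf lines (-9.37 ± 2.16, adjusted p = 0.00703). Tnr had 19.4, 5.02 and 14 CPM in Smarcb1 KO lines, against 0.106, 0.125 and 0.0829 CPM in Braf lines (6.84 ± 1.07, SE). Itga5 (-3.48 ± 0.80, adjusted p = 0.00666) and Itgb8 (-3.59 ± 0.88, adjusted p = 0.00971) were lower as in vehicle. Tnc, the tenascin of tumor stroma and healing wounds, had 0, 18.9 and 0 CPM in Smarcb1 KO lines, against 337, 612 and 1032 CPM in Braf lines (-6.65 ± 1.97, adjusted p = 0.0235). Without BS53965 its adjusted p was 0.0535. Itga11, a collagen receptor subunit of fibroblasts, had 0.533, 0.0823 and 0 CPM in Smarcb1 KO lines, against 25.6, 0.167 and 1.12 CPM in Braf lines, and was called lower (-5.06 ± 1.5, adjusted p = 0.0241). Its groups overlapped, and without B47275 the change was -1.29 (adjusted p = 0.467). Neither was called in vehicle, and the difference between the arms did not pass the test given below for CKI responses. Tnxb again rested on BS53958, with 0.082, 201 and 0 CPM in Smarcb1 KO lines, against 0.0353, 0.0833 and 0.0414 CPM in Braf lines (10.18 ± 2.96, SE). Itga7, Itgb2, Lama3 and Lamb3 were called lower as well, and each lost its call in at least 4 of 6 fits that left out 1 line. Itgb1 (-0.60 ± 0.32, adjusted p = 0.18), Itgav (0.07 ± 0.37, adjusted p = 0.909) and Itgb4 (-0.81 ± 1.40, adjusted p = 0.707) were not called. Here the count was 8 without B47275, 8 without BS53965 and 5 in a fit of the compared groups alone. Leaving out BS53958 and BS53965, whose CKI libraries were shallow, gave 7, but this left 1 Smarcb1 KO library, assumed to vary like the other groups. Some markers of other cell types differed between these lines under CKI too. The fibroblast markers summed to 14.9, 70.2 and 112 CPM in Smarcb1 KO lines and 1445, 21.9 and 2063 CPM in Braf lines (3 of 7 called lower). The epithelial markers summed to 18.5, 367 and 2.08 CPM in Smarcb1 KO lines and 2550, 10470 and 253 CPM in Braf lines (1 of 12 called lower). The thyroid follicle markers summed to 522, 38.9 and 89.4 CPM in Smarcb1 KO lines and 592, 276 and 706 CPM in Braf lines (2 of 6 tested called lower). Their part in the members' changes was not tested.

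Set against the other KO genotypes in vehicle, Smarcb1 KO lines differed in 9 of 40 members from Arid1a KO lines (13.8% of all genes called) and in 7 of 40 from lines labelled Arid2 KO (10.2% of all genes). These comparisons and that with Braf lines share the Smarcb1 KO libraries. Fn1 changed by -6.64 ± 1.47 (SE, adjusted p = 0.00662) against Arid1a KO and by -6.29 ± 1.45 (SE, adjusted p = 0.0108) against Arid2 KO lines, and Lama5 by -5.04 ± 1.06 (SE, adjusted p = 0.00489) and -5.92 ± 1.11 (SE, adjusted p = 0.003). Beside the Smarcb1 KO values above, Lama5 had 771, 247 and 320.3 CPM in Arid1a KO lines and 916, 719 and 839.5 CPM in lines labelled Arid2 KO, without overlap. Itgb8 averaged 1.43 ± 0.993 CPM in Smarcb1 KO and 93.3 ± 42 CPM in Arid1a KO lines, with a log2 change of -6.04 ± 0.96 (SE, adjusted p = 0.000717). Against lines labelled Arid2 KO the Itgb8 change was -3.71 ± 0.86 (SE, adjusted p = 0.0114). The fitted change of Tnr was 9.46 ± 1.17 (SE) against Arid1a KO and 9.40 ± 1.16 (SE) against lines labelled Arid2 KO. Lama2, the muscle and nerve laminin alpha chain, was called lower against Arid1a KO lines (-5.54 ± 1.37, adjusted p = 0.0123), where BA45198 was far above the others, and without BA45198 the change was -2.95 (adjusted p = 0.136). Tnc was called lower too (-6.95 ± 1.99, adjusted p = 0.0272), a call lost without BA45198, BA47473 or BS53965. Itga5 (-2.99 ± 0.76, adjusted p = 0.015) lost its call in 3 of 6 fits that left out 1 line, and Itgb2 (-3.83 ± 1.19, adjusted p = 0.0386) in all 6. Nid2 was called lower against lines labelled Arid2 KO (-5.82 ± 1.81, adjusted p = 0.0475), a call lost in all 6 such fits and with no filter on low counts (adjusted p = 0.0625). Tnxb was higher in both comparisons through BS53958 alone (9.88 ± 2.86 and 9.47 ± 2.79, SE). The fibroblast markers summed to 6.41 to 667 CPM in Smarcb1 KO lines, against 1306 to 3654 CPM in Arid1a KO lines (5 of 7 called lower) and 20.2 to 32.5 CPM in lines labelled Arid2 KO (1 of 7 called higher). Their part in the changes of Fn1, Tnc and Lama2 was not tested. Itga7 had 0.332, 4.07 and 0.947 CPM in Smarcb1 KO lines, against 138, 349.7 and 38.8 CPM in lines labelled Arid2 KO (-6.62 ± 1.32, adjusted p = 0.00448). The highest Itga7 level was in AB52980, where the skeletal muscle markers summed to 253.7 CPM, against 1.497 and 1.732 CPM in AB51189 and AB55694, and the part of muscle-like RNA in the Itga7 level was not tested. The count against Arid1a KO lines was 5 without BA45198, 5 without BA47473 and 5 in a fit of the compared groups alone.

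Between Arid1a KO and Braf lines in vehicle, edgeR called 2 of 40 members, Lama2 and Lama3, against 3.63% of all genes. At an unadjusted p under 0.05 there were 8 of 40, against 19.5% of all genes, and DESeq2 called 6, against 9.31% of all genes. Lama2 was higher, with 25.3, 2.56 and 0.597 CPM in Arid1a KO lines, against 0.138, 0.103 and 0.774 CPM in Braf lines (4.80 ± 1.31, adjusted p = 0.0498). BA45198 was far above the other Arid1a KO lines, the groups overlapped, and without BA45198 the adjusted p was 0.342. Lama3 was lower, with 0.31, 0.224 and 0.128 CPM in Arid1a KO lines, against 37.2, 371 and 1.55 CPM in Braf lines (-9.25 ± 2.37, adjusted p = 0.0389), and the groups did not overlap. Itgb4 had 74.9, 106 and 6.27 CPM in Arid1a KO lines, below all Braf lines but not called (-2.97 ± 1.5, adjusted p = 0.291). Fn1 had 15056, 12569 and 9647 CPM in Arid1a KO lines, amid the Braf values (0.03 ± 1.15, adjusted p = 0.995). Itgb1 (1524, 1620 and 1432 CPM, -0.14 ± 0.32, adjusted p = 0.865) and Itgav (563, 542 and 232 CPM, -0.23 ± 0.37, adjusted p = 0.806) overlapped with Braf lines too. The count of 2 became 4 without B52482, 0 when any of the other 5 lines was left out, and 0 in a fit of these groups alone. The epithelial markers summed to 368, 406 and 321 CPM in Arid1a KO lines, against 7006, 10280 and 1596 CPM in Braf lines, and fibroblast markers to 3654, 1840 and 1306 CPM against 32.2, 5.46 and 174 CPM. Their part in the Lama2 and Lama3 differences was not tested.

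Between lines labelled Arid2 KO and Braf lines no member was called by edgeR in vehicle, against 0.0512% of all genes. At an unadjusted p under 0.05 there were 6 of 40, against 12.4% of all genes, and DESeq2 called 3, against 3.46% of all genes. Itgb4 had 176, 20.7 and 41.2 CPM in lines labelled Arid2 KO, below all Braf lines (-2.61 ± 1.48, adjusted p = 0.508). Fn1 had 14107, 7200.2 and 7800.4 CPM (-0.32 ± 1.15, adjusted p = 0.95), Itgb1 1427, 884 and 1562 CPM (-0.38 ± 0.32, adjusted p = 0.714) and Itgav 515, 279 and 523 CPM (-0.24 ± 0.37, adjusted p = 0.869), within or near the range of Braf lines. Under CKI, edgeR called no member between Arid1a KO and Braf lines (0.736% of all genes) or between lines labelled Arid2 KO and Braf lines (0.064% of all genes). Without B52482 it called 5 and 2, but the calls over all genes in those fits are not given here and may have risen as well. At an unadjusted p under 0.05 there were 10 members for Arid1a KO, against 14.6% of all genes, and 8 for Arid2 KO, against 10.5%. DESeq2 called 9 for Arid1a KO, against 6.01% of all genes, and 5 for Arid2 KO, against 2.71%. Under CKI the changes of Arid1a KO lines over Braf lines were -0.47 ± 1.15 (SE, adjusted p = 0.908) for Fn1, -0.29 ± 0.32 (SE, adjusted p = 0.755) for Itgb1 and 0.78 ± 0.37 (SE, adjusted p = 0.345) for Itgav, whose Arid1a KO values were all above those of Braf lines. For Itgb4 the change was -4.73 ± 1.64 (SE, adjusted p = 0.165). In lines labelled Arid2 KO under CKI the changes over Braf lines were 0.28 ± 1.15 (SE, adjusted p = 0.968) for Fn1, -0.07 ± 0.32 (SE, adjusted p = 0.974) for Itgb1 and 0.30 ± 0.37 (SE, adjusted p = 0.856) for Itgav. That of Itgb4 (-3.76 ± 1.56, adjusted p = 0.386) was not called either, and all 4 genes overlapped between these groups.

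Lines of the same genotype differed widely in the epithelial members. Lamb3 had 108, 361 and 7.74 CPM in the 3 Braf vehicle lines, Lama3 37.2, 371 and 1.55 CPM and Itgb6, the beta subunit of an epithelial receptor for latent TGF-beta, 11.1, 15.4 and 0.103 CPM. B52482 was the lowest Braf line for all 3 genes. It also had the lowest summed epithelial markers of the Braf lines, 1596 CPM with 6 of 12 markers above 1 CPM, against 7006 and 10280 CPM with all 12 above 1 CPM in B47275 and B48051. Among Smarcb1 KO vehicle lines BS53958 was the highest for the same 3 genes and for the epithelial markers, at 403.2 CPM with 11 of 12 above 1 CPM. In wildtype libraries, where the markers summed to 1864, 2023 and 2110 CPM, Lamb3 had 196, 205 and 230.1 CPM. No test was run on these orders.

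**Figure D3:**
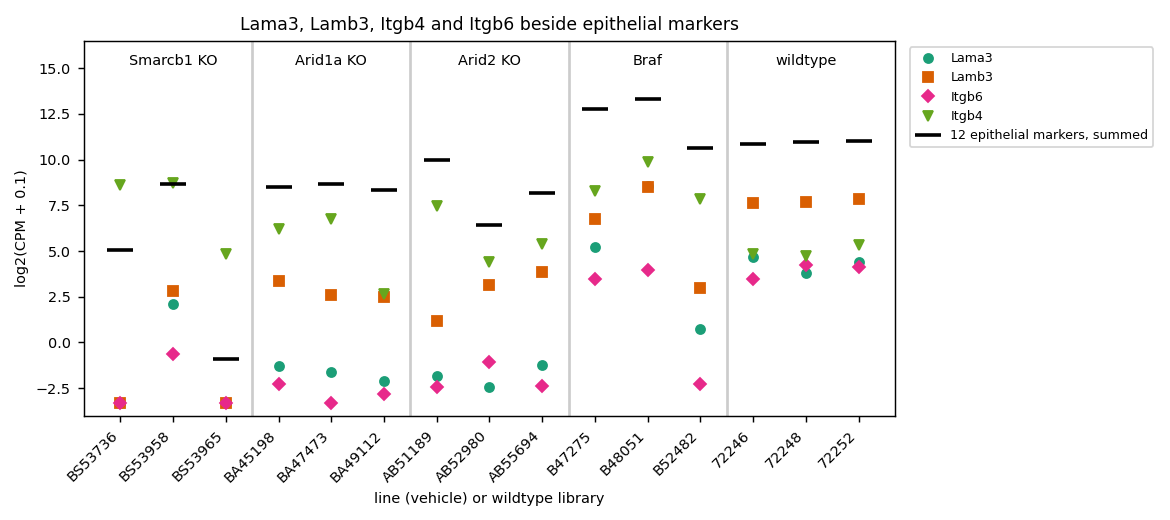
Levels of Lama3, Lamb3, Itgb6 and Itgb4 beside the summed level of 12 epithelial markers (black dashes), as log2(CPM + 0.1), in the 12 vehicle libraries and 3 wildtype libraries, 1 column per library. Lama3, Lamb3 and Itgb6 are high in B47275, B48051 and the wildtype libraries, and BS53958 stands above the other Smarcb1 KO lines.

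As a mean over the 4 genotypes, the laminin beta chain Lamb2, the integrin subunits Itga1, Itga11, Itgav and Itgb5, and Nid2, Tnc and Tnn rose under CKI. Itga3, Itga6, Itga10, Itgae, Itgb2, Itgb3, Itgb4 and Itgb7 fell. These 16 of 40 members (8 higher, 8 lower) were set against 27.2% of all genes called (13.6% in each direction). Among them, Itga1 and Itga11, which rose, are collagen receptor subunits, as is Itga10, which fell. Itga3, Itga6 and Itgb4, which fell, are laminin receptor subunits. Of the 16, Itga11 and Tnn passed the filter on low counts through CKI libraries alone, and Itgae and Itgb7 through vehicle libraries alone. Their levels are therefore given with no test, and they stay in the counts of called members. Median levels of Itgae were 0.179 CPM under CKI and 0.492 CPM in vehicle, and those of Itgb7 0.199 and 0.912 CPM, all near the floor. Since the CKI and the vehicle library of a line belong together, a fit with the line as a block was run as well. It called 22 members (12 higher, 10 lower, with 42.9% of all genes), adding Itga9, Lama1, Lama3 and Lamc1 as higher and Lamb1 and Tnxb as lower. Lama1, too, passed the filter on low counts through CKI libraries alone.

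Lamb2 ranged from 179 to 1370 with a median of 707 CPM in the 12 CKI libraries, and from 115 to 444 with a median of 164 CPM in the 12 vehicle libraries. It was higher under CKI in all 12 lines, with a log2 change of 1.96 ± 0.29 (SE, adjusted p = 0.000228). Lamb1, the other widely used beta chain, was not called (-0.83 ± 0.56, adjusted p = 0.29) and was lower in the fit with the line as a block (-0.82 ± 0.18, adjusted p = 0.00497). Per kilobase, Lamb2 had 82.4, 47.4 and 225 CPM per kb in Braf lines under CKI and 34.8, 25.5 and 32.9 in vehicle, and Lamb1 had 78.8, 73.2 and 51.4 under CKI and 77, 62.2 and 149.8 in vehicle. Lamb1 was the higher of the pair in each Braf line in vehicle, and under CKI it was the higher in B48051, near Lamb2 in B47275 and the lower in B52482.

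Itgb5, which pairs with Itgav to bind vitronectin, ranged from 131 to 1540 with a median of 771 CPM under CKI and from 97.6 to 505 with a median of 274 CPM in vehicle. It rose in 12 of 12 lines (1.34 ± 0.24, adjusted p = 0.000867), and Itgav rose in 10 of 12 (0.61 ± 0.18, adjusted p = 0.0209), a call lost without BS53736 (adjusted p = 0.0713). Itga1 ranged from 0.165 to 256 with a median of 38.2 CPM under CKI and from 0.0485 to 19 with a median of 1.93 CPM in vehicle. It was higher in all 12 lines (3.85 ± 0.82, adjusted p = 0.00292), by the least in Smarcb1 KO line BS53958 and by the most in Arid1a KO line BA47473. In BS53958 it had 2 counts under CKI and 1 in vehicle, so these counts do not settle the direction there. Itga11 ranged from 0 to 47.2 with a median of 2.08 CPM under CKI and from 0.0427 to 0.507 with a median of 0.222 CPM in vehicle. It was higher in 10 of 12 lines (4.44 ± 0.73, SE). Tnn, tenascin-N, stayed at a low level, from 0 to 7.98 with a median of 1.38 CPM under CKI and from 0.044 to 0.57 with a median of 0.164 CPM in vehicle. It was higher in 10 of 12 lines (2.56 ± 0.43, SE). Nid2 rose by 2.69 ± 0.81 (SE, adjusted p = 0.021) in the mean over genotypes, with all 9 lines that were not Smarcb1 KO higher and all 3 Smarcb1 KO lines lower under CKI. Without the shallow lines BS53958 and BS53965 the adjusted p of Nid2 was 0.138, and without BS53736 it was 0.0658. The Tnc change (2.26 ± 0.81, adjusted p = 0.0447) lost its call without any 1 of 9 lines, with an adjusted p of 1 without BS53958.

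Itga6 ranged from 59.4 to 602 with a median of 334 CPM under CKI and from 421 to 1670 with a median of 711 CPM in vehicle. It was lower in all 12 lines (-1.35 ± 0.31, adjusted p = 0.00441), although in B47275 it had 411 CPM under CKI and 421 CPM in vehicle. Itga3 was lower in all 12 as well (-1.40 ± 0.45, adjusted p = 0.0279), a call lost when any 1 of 7 lines was left out. In AB52980 Itga3 had 1108.5 CPM under CKI and 1222 CPM in vehicle. Itgb4, the partner of Itga6, was lower in 10 of 12 lines (-1.98 ± 0.72, adjusted p = 0.0498), a call lost without any 1 of 9 lines and with RLE size factors (adjusted p = 0.0516). Itgb2 ranged from 0 to 15.5 with a median of 0.283 CPM under CKI and from 0.437 to 54.4 with a median of 4.61 CPM in vehicle and was lower in all 12 lines (-3.56 ± 0.61, adjusted p = 0.000696), although in B48051 it had 15.5 CPM under CKI and 15.6 CPM in vehicle. Itgb3, the beta subunit of the platelet fibrinogen receptor and of a vitronectin receptor, ranged from 0.576 to 57.3 with a median of 10.3 CPM under CKI and from 0.631 to 357 with a median of 70.3 CPM in vehicle. It was lower in 9 of 12 lines (-2.63 ± 0.61, adjusted p = 0.00499). Itgb3 was higher in AB52980, at 57.3 CPM under CKI and 14.8 CPM in vehicle. It was near level in B48051 (13.2 and 13.1 CPM) and AB55694 (35.4 and 34.2 CPM). Fn1 was not called (-0.63 ± 0.58, adjusted p = 0.451), nor was Itgb1 (0.09 ± 0.16, adjusted p = 0.71).

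**Figure D4:**
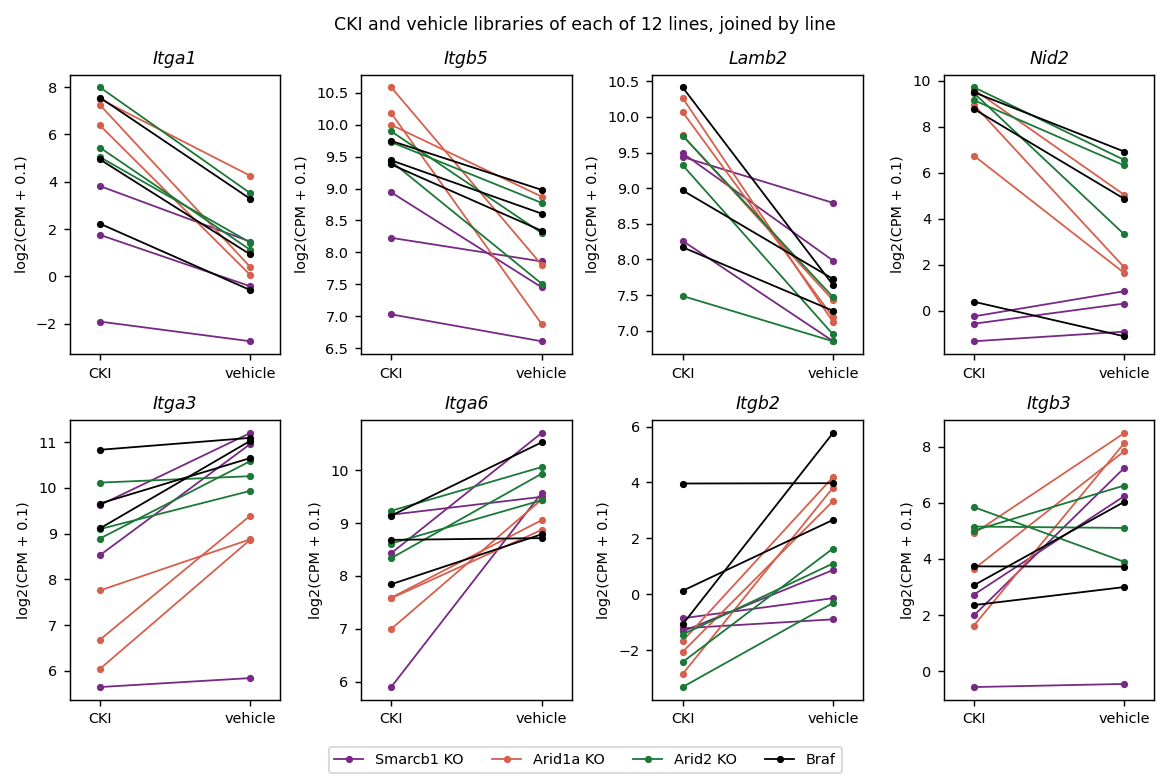
Levels of 8 members as log2(CPM + 0.1) in the CKI library (left) and the vehicle library (right) of each of the 12 lines, joined by line and colored by genotype. Itga1, Itgb5 and Lamb2 are higher under CKI in every line. Itga3, Itga6 and Itgb2 are lower in every line, though nearly level for Itga6 in B47275 and for Itgb2 in B48051. Nid2 is higher under CKI in all lines but the 3 Smarcb1 KO lines. In those 3 lines Nid2 is near the floor in both arms, and Itga1 in BS53958 rests on 2 counts under CKI against 1 in vehicle.

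Within single genotypes, edgeR called members between CKI and vehicle in Arid1a KO lines: 7 of 40 (5 higher, 2 lower), against 13.9% of all genes. With the line as a block the count was 18 (9 higher, 9 lower; 32.3% of all genes). Lamb2 had 855, 1074 and 1233 CPM under CKI, against 172, 146 and 139 CPM in vehicle, and the groups were far apart (2.80 ± 0.59, adjusted p = 0.00665). Itgb5 had 1021, 1535 and 1159.9 CPM under CKI, against 469, 224 and 118 CPM in vehicle (2.21 ± 0.49, adjusted p = 0.00858). Itgav had 946, 1294 and 846 CPM under CKI, against 563, 542 and 232 CPM in vehicle (1.22 ± 0.37, adjusted p = 0.0381). Both subunits of this vitronectin receptor were thus higher in each Arid1a KO line under CKI than in any in vehicle. Itga11 had 7.4, 47.2 and 23.2 CPM under CKI, against 0.206, 0.224 and 0.0427 CPM in vehicle (7.34 ± 1.63, SE). Tnn had 1.93, 7.98 and 2.64 CPM under CKI, against 0.465, 0.0449 and 0.213 CPM in vehicle (4.10 ± 0.87, SE). Both were near absent in vehicle, with at most 5 counts of Itga11 and 9 of Tnn in any of these vehicle libraries. Since both passed the filter on low counts through CKI libraries alone, their tests add nothing to their counts. They stay among the 7. Itgb2 had 0.0378, 0.139 and 0.213 CPM under CKI, against 13.9, 9.96 and 18.2 CPM in vehicle (-6.70 ± 1.39, adjusted p = 0.00606). Itgb3 had 2.98, 12.4 and 29.9 CPM under CKI, against 279, 229 and 357 CPM in vehicle (-4.24 ± 1.3, adjusted p = 0.0387). None of these 7 genes overlapped between the arms. Fn1 had 4089.5, 3606 and 7411 CPM under CKI, against 15056, 12569 and 9647 CPM in vehicle, also without overlap but not called (-1.29 ± 1.17, adjusted p = 0.48). Itgb1 (-0.10 ± 0.32, adjusted p = 0.87) and Itgb4 (-3.01 ± 1.51, adjusted p = 0.184) were not called. The block also called Itga1 (5.51 ± 0.67, adjusted p = 0.000566), Nid2 (5.59 ± 0.74, adjusted p = 0.000803) and Lama4 (5.50 ± 1.36, adjusted p = 0.0143) as higher and Itga3 (-2.22 ± 0.51, adjusted p = 0.00881) and Itga6 (-1.72 ± 0.51, adjusted p = 0.0265) as lower. Unblocked, leaving out BA45198 gave 4 calls, leaving out BA47473 or BA49112 gave 0, and the count was 14 in a fit of the compared groups alone. The calls over all genes in these fits are not given here and may have moved as well.

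In Braf lines edgeR called no member between CKI and vehicle and none of all genes (0%). There were 7 of 40 at an unadjusted p under 0.05, against 11.2% of all genes, and DESeq2 called 2, against 2.19%. The line block called 2, with 2.48% of all genes: Itga1 (3.94 ± 0.62, adjusted p = 0.0155) and Tnc (4.50 ± 0.87, adjusted p = 0.0337). Tnc had 337, 612 and 1032 CPM under CKI, against 11.8, 18.3 and 87.2 CPM in vehicle, without overlap. Fn1 had 6387, 8429.5 and 6322 CPM under CKI, against the vehicle levels above (-0.79 ± 1.16, adjusted p = 0.863), and Itgb1 had 1727, 1432 and 2029.8 CPM (0.05 ± 0.32, adjusted p = 0.976). Itgav (0.22 ± 0.37, adjusted p = 0.884) and Itgb4 (-1.25 ± 1.42, adjusted p = 0.799) overlapped as well.

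In lines labelled Arid2 KO edgeR called no member (0.141% of all genes). There were 9 at an unadjusted p under 0.05, against 13.6% of all genes, and DESeq2 called 5, against 3.79%. The line block called 7, all higher, with 6.27% of all genes. Among them were Itga1 (4.20 ± 0.59, adjusted p = 0.00621), Itgb5 (1.49 ± 0.37, adjusted p = 0.0416), Lamb2 (1.78 ± 0.42, adjusted p = 0.0365) and Nid2 (3.96 ± 0.70, adjusted p = 0.0146). Itga11 (4.15 ± 0.98, SE) and Tnn (4.32 ± 0.86, SE) were among the 7 too, and are given with no test as above. Nid2 had 708, 845 and 571 CPM under CKI, against 9.86, 94.1 and 79.7 CPM in vehicle, so every CKI library was above every vehicle library. Without the block, Fn1 (-0.18 ± 1.15, adjusted p = 0.969), Itgb1 (0.35 ± 0.32, adjusted p = 0.666), Itgav (0.76 ± 0.37, adjusted p = 0.386) and Itgb4 (-2.40 ± 1.47, adjusted p = 0.49) were not called.

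In Smarcb1 KO lines edgeR called no member (0.032% of all genes). There were 4 at an unadjusted p under 0.05, against 8.53% of all genes, and DESeq2 called 2, against 1.76%. The line block called 1, Tnr, with 1.06% of all genes. Tnr had 19.4, 5.02 and 14 CPM under CKI, against 212, 11.7 and 57.5 CPM in vehicle, and was lower under CKI in each of the 3 lines (-2.26 ± 0.42, adjusted p = 0.0394). Fn1 had 99, 204 and 9.21 CPM under CKI, against 4.13, 363 and 3.57 CPM in vehicle, higher under CKI in BS53736 and BS53965 and lower in BS53958 (-0.25 ± 1.15, adjusted p = 0.997). With the line as a block the Fn1 value turned to 1.61 ± 1.03 (SE, adjusted p = 0.472), so its direction was not settled. Itgb1 (0.08 ± 0.32, adjusted p = 0.994), Itgav (0.25 ± 0.37, adjusted p = 0.928) and Itgb4 (-1.28 ± 1.42, adjusted p = 0.886) were not called.

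Whether a KO changed the response to CKI was tested as the response of the KO lines minus that of Braf lines. No member and no gene (0%) was called by edgeR for Arid1a KO, Arid2 KO or Smarcb1 KO, and DESeq2 also called no member, against 0.173%, 0.0271% and 0.262% of all genes in that order. At an unadjusted p under 0.05 there were 2 members for Arid1a KO (5.12% of all genes), 0 for Arid2 KO (0.793%) and 3 for Smarcb1 KO (4.22%). For Arid1a KO these were Itgb2 (difference -4.52, adjusted p = 0.791) and Lama4 (7.63, adjusted p = 0.718). For Smarcb1 KO they were Itga11 (-4.40), Tnn (-3.24) and Tnr (-3.85), each with an adjusted p of 1. With the line as a block no member was called either, with 0.147% of all genes called for Arid1a KO, 0% for Arid2 KO and 0.032% for Smarcb1 KO. With 3 lines per group this test finds large differences only, and it does not show that the responses were alike.

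Of the partners of these genes, 21 of 71 tested in the same 5 lists were called under CKI as a mean over genotypes, 29.6% beside 27.2% of all genes. Of 24 focal adhesion genes 5 were higher, among them Bcar1 (0.66 ± 0.12, adjusted p = 0.000765), Actn1 (0.89 ± 0.20, adjusted p = 0.00368) and Parva (0.64 ± 0.15, adjusted p = 0.00478), and Parvb, another partner of integrin-linked kinase, was lower (-1.25 ± 0.29, adjusted p = 0.00537). Of 12 other laminin receptors and tetraspanins 3 were higher and 3 lower. Dystroglycan (Dag1) rose by 0.97 ± 0.19 (SE, adjusted p = 0.0016) and the thrombospondin receptor Cd47 by 0.77 ± 0.21 (SE, adjusted p = 0.0111). The tetraspanin Cd9 (-1.13 ± 0.21, adjusted p = 0.00115) and the hyaluronan receptor Cd44 (-0.91 ± 0.23, adjusted p = 0.00772) were lower. Of 12 basement membrane genes tested 3 were higher, the collagen chains Col4a1 (1.73 ± 0.54) and Col4a2 (1.98 ± 0.56) and Fras1 (2.80 ± 0.58). Of 19 other matrix glycoproteins 4 were higher and 2 lower. Thbs1, thrombospondin, rose by 2.83 ± 0.44 (SE, adjusted p = 0.000347), as did Thbs3 (2.27 ± 0.38) and Fbln5 (4.79 ± 1.29), while osteopontin (Spp1), an integrin ligand, was lower (-4.38 ± 0.54, adjusted p = 7.06e-05). No hemidesmosome gene was called of 4 tested by edgeR. Beside these changes, 4 of 7 fibroblast markers rose under CKI (Col1a1, 5.30 ± 0.89; Col1a2, 2.48 ± 0.81; Col3a1, 2.60 ± 0.79; Dcn, 2.95 ± 0.69). Their sum was 1902 to 6741 CPM in Arid1a KO lines under CKI and 1306 to 3654 CPM in vehicle, and 515 to 1142 CPM in lines labelled Arid2 KO under CKI and 20.2 to 32.5 CPM in vehicle. The epithelial markers summed to 17.1 to 31.5 CPM under CKI and 321 to 406 CPM in vehicle in Arid1a KO lines, without overlap, and none of the 12 was called by edgeR. The Schwann cell markers summed to 178 to 275 CPM under CKI and 9.35 to 11.1 CPM in vehicle in Arid1a KO lines, and to 7.37 to 210.3 CPM and 2.46 to 12.6 CPM in lines labelled Arid2 KO, with 1 of 4 tested called higher in the mean over genotypes. In Arid1a KO lines 1 of the 4 was called higher and 1 lower, with a median log2 change of 0.171, so the list did not rise as a set. The thyroid markers Tshr (4.61 ± 0.99) and Tg (thyroglobulin) rose as well. The part of these in the member changes was not tested.

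Braf lines in vehicle had more RNA of fibronectin, of its receptor subunits Itga5 and Itgb1 and of the laminin receptor subunits Itga3, Itga6 and Itgb4 than the wildtype libraries, and less of leukocyte integrin subunits, Lama2, Tnxb and Vtn. Of 44 members tested, 24 were called (11 higher, 13 lower), against 46.5% of all 16821 genes in this fit of 27 libraries (23.7% higher, 22.8% lower). Of the 13 lower members, Itgal, Itgam, Itgax and Vtn passed the filter on low counts through the wildtype libraries alone, so their levels are given with no test. They stay in the counts of called members of this comparison. By class, 5 of 17 integrin alpha subunits tested were higher and 7 lower, 3 of 8 beta subunits were higher, 2 of 11 laminin chains were higher and 2 lower, and 1 of 8 glycoproteins was higher and 4 lower. Genotype, culture, tissue and treatment with vehicle cannot be told apart in this comparison.

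The receptor subunits that were higher included Itgb1, with 1324, 1085 and 2654 CPM in Braf lines, against 549.6, 565 and 554 CPM in wildtype libraries (1.60 ± 0.31, adjusted p = 0.000436), and Itgav, with 443, 313 and 809 CPM in Braf lines, against 169.7, 144 and 171 CPM in wildtype libraries (1.69 ± 0.36, adjusted p = 0.000926). Neither overlapped. Fn1 averaged 12200 ± 6950 CPM in Braf lines and 167 ± 109 CPM in wildtype libraries (6.19 ± 1.39), and Itga3 averaged 1960 ± 309 CPM and 125 ± 27.8 CPM in the same groups (3.97 ± 0.95). Itga2 (5.75 ± 1.56), Itga5 (2.77 ± 0.72), Itga6 (1.85 ± 0.59), Itgb4 (3.95 ± 1.49), Itgb5 (1.76 ± 0.46), Lama5 (2.52 ± 0.89) and Lamc1 (1.59 ± 0.61) were also higher. Of these, Itga5, Itga6, Itgb4, Lama5 and Lamc1 lost their call when single libraries were left out, Itga5 without B52482 (adjusted p = 0.0818).

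Leukocyte subunits, Itga4, Lama2 and Vtn were near absent in Braf lines. Itgax, the alpha subunit of dendritic cells, had 0.0461, 0 and 0.0516 CPM in Braf lines, against 3.68, 5.02 and 4.57 CPM in wildtype libraries. Itgal, the lymphocyte subunit, had 0.0922, 0.0515 and 0 CPM in Braf lines, against 7.04, 5.57 and 8.81 CPM in wildtype libraries. Itgam, the myeloid subunit, had 0.0922, 0.0515 and 0.103 CPM in Braf lines, against 12, 12.3 and 9.51 CPM in wildtype libraries. These 3 alpha subunits pair with Itgb2, which was not called here. Over the Braf libraries Itgax had 2 counts and Itgal 3, and the ratios of wildtype to Braf were 134 (95% exact counting interval 36.7 to 1110) and 143 (48.7 to 697). Itga4, a subunit of leukocytes and mesenchyme, had 0.323, 0.103 and 0.258 CPM in Braf lines, against 47.6, 38.7 and 121 CPM in wildtype libraries (-8.20 ± 1.76, adjusted p = 0.000968). Lama2 had 0.138, 0.103 and 0.774 CPM in Braf lines, against 83.5, 76.6 and 35.7 CPM in wildtype libraries (-7.58 ± 1.35, adjusted p = 0.000186). Lama2 is also found in muscle and nerve. Vtn, vitronectin, had 0 counts in the 3 Braf libraries, against 9.95, 5.27 and 6.13 CPM in wildtype libraries, at least 143-fold higher in wildtype with a floor of 3 counts over the group. These 6 genes did not overlap between the groups. Tnxb (-8.75 ± 2.55), Itga11 (-5.42 ± 1.42), Lamc3 (-5.33 ± 1.29), Tnr (-4.84 ± 1.06), Tnn (-3.38 ± 0.83), Itga2b (-2.50 ± 0.55) and Itgae (-2.43 ± 0.65) were lower too.

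Markers of other cells were lower in Braf lines beside these members. The leukocyte list summed to 3.41 to 5.2 CPM in Braf lines and 152 to 237 CPM in wildtype libraries (7 of 8 tested called lower), with Tyrobp and Cd3e at 0 in Braf lines. The endothelial list summed to 1.49 to 5.21 CPM in Braf lines and 575 to 814 CPM in wildtype libraries (8 of 8 lower), with Cldn5 at 0 in Braf lines. The skeletal muscle list summed to 2.01 to 2.73 CPM in Braf lines and 1743 to 3715 CPM in wildtype libraries (7 of 7 lower), with Myh4 at 0 in Braf lines. The fibroblast list summed to 5.46 to 174 CPM in Braf lines and 2018 to 4006 CPM in wildtype libraries (5 of 7 lower), and the Schwann cell list to 25.7 to 59.6 CPM and 269 to 312 CPM (4 of 5 lower). The platelet list summed to 2.22 to 23.2 CPM in Braf lines and 8.97 to 12.5 CPM in wildtype libraries, with Pf4 at 0 in Braf lines. Epithelial markers were not called (0 of 12 by edgeR), at 1596 to 10280 CPM in Braf lines and 1864 to 2110 CPM in wildtype libraries. The part of these cells in the lower members was not tested.

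In the same comparison 40 of 73 partner genes tested were called (54.8%, beside 46.5% of all genes), and 14 of 24 focal adhesion genes were higher and 1 lower in Braf lines, with Flna (2.34 ± 0.27), Src (2.38 ± 0.30), Actn4 (1.65 ± 0.21) and Bcar1 (1.33 ± 0.22) among the higher ones. Of 14 basement membrane genes 2 were higher and 7 lower, with Smoc2 at 1.91 ± 3.26 CPM in Braf lines and 594 ± 158 CPM in wildtype libraries (-8.29 ± 1.38). Sdc1 (5.10 ± 0.68) and Cd44 (2.07 ± 0.45) were among 5 of 12 other laminin receptors and tetraspanins that were higher. Of 19 other matrix glycoproteins 4 were higher and 5 lower, and osteopontin (Spp1) had 14860 ± 10200 CPM in Braf lines and 21.5 ± 26.9 CPM in wildtype libraries (9.43 ± 1.46, adjusted p = 4.91e-05).

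**Figure D5:**
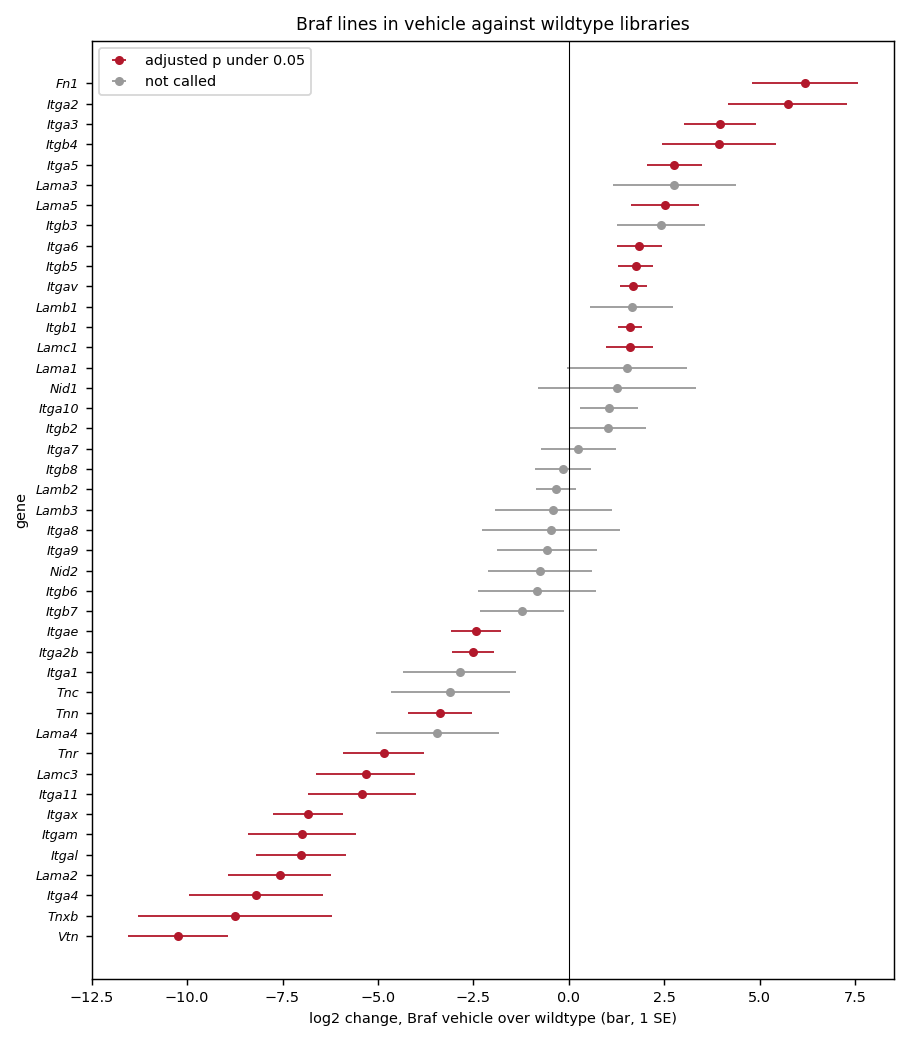
Fitted log2 change of Braf vehicle lines over wildtype libraries (horizontal axis; bar, 1 SE) for 43 of the 44 members tested, sorted by size, with called members in red. Fn1 has the highest value, and Vtn, Tnxb, Itga4, Lama2 and the leukocyte subunits Itgal, Itgam and Itgax stand at the lower end, where the fitted value of Vtn rests on 0 counts in Braf lines and is no bound. Itgal, Itgam, Itgax and Vtn passed the filter on low counts through the wildtype libraries alone, so their red marks are no test result.

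The members that did not pass the filter in the tumor libraries were Itgad, Itgal, Itgam, Itgax and Vtn. Their highest counts in any of the 24 tumor libraries were 6, 39, 18, 4 and 1, so levels of these genes were near the floor in most tumor libraries. The highest levels were 1.6 CPM for Itgal in BS53736 under CKI, and for Itgam 0.804 CPM in AB52980 under CKI and 0.679 CPM in BS53958 in vehicle. Itgad, a leukocyte alpha subunit, was not tested in the fit with wildtype libraries either, where its highest count was 4.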

How the data were processed

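RNA sequencing was measured in 27 mouse libraries: 24 from 12 tumor lines (vehicle and CKI) and 3 labelled wildtype. The table deposited by the authors holds raw read counts for each gene symbol, with no normalization. Per the submitters' processing notes, mm9, STAR 2.4, HTSeq 0.6.1 and DESeq2 were used, with no role stated. No source used here gives the annotation, the strand setting or any filter. RNA came from TRIzol extraction and a TruSeq kit, per the labels' protocols.

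Counts were fitted in R 4.3.3 with edgeR 4.0.16 (limma 3.58.1): filterByExpr, TMM scaling, 1 mean per group, quasi-likelihood F test, Benjamini-Hochberg adjustment over all genes, and calls at an adjusted p under 0.05. The 24 tumor libraries shared 1 fit (15634 genes), and the wildtype comparison used all 27 libraries (16821 genes). There were 17 comparisons. Each SE is approximate (change over the root of F). CPM used the TMM-scaled sizes of all 27 libraries, which differ by at most 3.33% from those of the 24. The code was tested on simulated data.

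All members but 1, which is counted with the others but not reported here, could be named. Full values went to up to 8 called members with the smallest adjusted p per comparison and to Fn1, Itgb4, Itgb1 and Itgav. From each of the 13 other lists (135 genes) at most 4 called genes were named. The members and lists were chosen with earlier results of these data known.

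CKI and vehicle libraries share line numbers in the labels, so lines pair them: deviations from group means correlated at 0.259 to 0.773 within the 12 lines. The blocked fit had 8 residual degrees of freedom, against 16. No 2 libraries of a group agreed within sampling noise (lowest chi-square per degree of freedom 30.8). Lines are separate tumor-derived cultures per the labels, and nothing says whether wildtype libraries are separate animals, so p-values there measure only the spread between libraries. Intervals and floors cover counting error only. Alternatives were RLE size factors, no filter, a filter of 1 CPM in 6 libraries (3 for wildtype), DESeq2 1.42.0, only the compared groups, the line block, each line left out, and both shallow lines left out. The block without the shallow lines was chosen after seeing the data.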

Additional observations from a re-analysis of the deposited data

How the results depend on the processing

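For 130 named changes, 91 of them called, 1561 alternative values were computed. Of these, 1296 kept their direction and their side of the threshold, 232 lost and 2 gained a call, and 31 turned direction. Every value that turned belonged to a change that was not called, and the cause was not tested.

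Counts of called members moved as follows. Where no share of all genes stands beside a count, the calls over all genes may have moved as well. DESeq2 gave 6 (Arid1a KO) and 3 (Arid2 KO) over Braf lines in vehicle, 9 and 5 under CKI, 12 for Smarcb1 KO over Arid2 KO, and 2, 14, 5 and 2 for CKI over vehicle in Braf, Arid1a KO, Arid2 KO and Smarcb1 KO lines. By DESeq2 16.2% of all genes were called for Smarcb1 KO over Arid2 KO and 20.8% for CKI in Arid1a KO lines. With only the compared groups there were 0 for Arid1a KO over Braf, 2 for Smarcb1 KO over Braf (5 under CKI), 5 over Arid1a KO, 4 over Arid2 KO and 14 for CKI in Arid1a KO lines. This fit was not run for the mean over genotypes, which already uses all tumor groups. RLE size factors, no filter and the 1 CPM filter each gave 1 for Arid1a KO over Braf, and the 1 CPM filter gave 1 for CKI in Arid2 KO lines. Without lines BS53958 and BS53965 Smarcb1 KO lines had 6 calls over Braf, 5 over Arid1a KO and 7 over Braf under CKI, with 1 Smarcb1 KO library left in each arm and its spread taken from the other groups. The replicate block gave 2, 18, 7 and 1 for CKI in Braf, Arid1a KO, Arid2 KO and Smarcb1 KO lines and 22 for the mean. Every member called without the block was also called with it, and it called no response difference.

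Leaving out 1 line in turn gave 20 to 23 calls for Braf over wildtype, 0 to 4 for Arid1a KO and 0 to 1 for Arid2 KO over Braf in vehicle, and 0 to 5 and 0 to 2 under CKI. It gave 5 to 10 for Smarcb1 KO over Braf (8 to 13 under CKI), 5 to 7 over Arid1a KO and 5 to 6 over Arid2 KO. For CKI it gave 0 to 4 in Arid1a KO lines, 12 to 17 for the mean, and 0 in Braf, Arid2 KO and Smarcb1 KO lines and for the response differences.

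The values that turned with other settings were those of Fn1 under CKI in Smarcb1 KO lines (1.61 with the block, 4.59 without BS53958 and BS53965 with and without the block), Fn1 under CKI in the mean over genotypes (0.579, and 0.601 with the block, without those lines), and Itgav in Smarcb1 KO over Braf lines (-0.207). With 1 line left out, Smarcb1 KO over Braf values ranged from -0.205 to 0.493 for Itgav (-0.106 to 0.32 under CKI) and from -1.22 to 0.1 for Itgb4 (-3.89 to 1.7 under CKI). Arid1a KO over Braf values ranged from -0.3 to 0.531 for Fn1, -0.473 to 0.238 for Itgav and -0.357 to 0.343 for Itgb1. Arid2 KO over Braf values ranged from -0.692 to 0.17 for Fn1, -0.492 to 0.216 for Itgav and -0.604 to 0.1 for Itgb1 (-0.203 to 0.0658 under CKI). For CKI over vehicle, Itgb1 ranged from -0.105 to 0.385 in Braf, -0.17 to 0.0085 in Arid1a KO and -0.0159 to 0.169 in Smarcb1 KO lines. Fn1 ranged from -0.588 to 0.478 in Arid2 KO lines, -0.784 to 3.82 in Smarcb1 KO lines and -0.768 to 0.392 in the mean. In Smarcb1 KO lines Itgav ranged from -0.0515 to 0.589.

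RLE size factors moved the median log2 change of all genes by over 0.1 in the wildtype comparison alone, to -0.145 against 0.0158 with TMM. Depth limits low members most in the CKI library of BS53965, which held 2884130 counts.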
